A study of Mus musculus with 45 samples.

Results

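Macrophages of mouse muscle that stain for F4-80 and lack surface MHC class II (F4-80+ MHCII-) were compared 1 day after injury with those of uninjured muscle. The comparison took every array whose title names DTR- mice, this gate and either Day1.24hrDT or Day0. These were 2 day 1 and 2 day 0 arrays, 4 of the 45 arrays of the series, and all genes with a probe set of a single symbol were measured on them. The day 0 samples came from male C57Bl6 mice of genotype Foxp3.DTR-, 10 weeks old and uninjured, and were gated as Ly6g- CD11b+ F4-80+ MHCII-. The day 1 samples came from male C57Bl6 mice of the same genotype, 8 weeks old, 1 day after cardiotoxin injury, and the gate also required CD45+, DAPI- and SiglecF-. Their titles add 24 h of diphtheria toxin (DT), without saying from when the hours count. Foxp3.DTR mice carry the toxin's receptor under control of Foxp3, the defining factor of regulatory T cells, so that the toxin removes those cells, and DTR- mice lack the receptor.

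Whether day 0 mice had toxin is not stated in their labels. Injury, age, gate and array set differ between the days, as the toxin may. Their parts in a difference cannot be told apart within these 4 arrays. The labels do not tie the samples to separate animals. The p-values therefore cover the spread between samples alone, which may be technical. That spread was estimated over all 45 arrays in 18 groups, and not from these 4 arrays alone.

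Cardiotoxin, a snake venom peptide, kills muscle fibers, which regenerate from muscle stem cells. Uninjured muscle holds resident macrophages, while injury draws Ly6C-high monocytes from the blood through the chemokine receptor CCR2, and these become macrophages in the tissue. Resident macrophages are known for scavenger receptors, lectins, complement C1q, iron recycling and growth factors, and recently arrived monocytes for granule proteins, inflammatory cytokines and matrix proteins such as versican.

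The values were log2 intensities, on which 1 unit is a 2-fold difference. Array medians of the 4 samples lay between 180.4 and 191.1 in linear units. Across the 11074 genes tested, those whose mean reached a floor of 7.57 in at least 1 group of the series, the day 0 arrays correlated with each other at 0.982 and the day 1 arrays at 0.995, and a day 0 with a day 1 array at 0.911 to 0.926. The cell type label was checked against 12 general macrophage genes. Their mean was 12.56 and 12.50 at day 0 and 12.38 and 12.40 at day 1, and none lay below the floor on either day. The class II genes named below were well above the floor in both day 0 samples, although the gate was for cells without the surface protein. Foxp3 lay below the floor in all 4 samples, between 6.99 and 7.13.

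Day 0 replicate 1 stood apart from day 0 replicate 2 on several gene lists, and by the largest medians on the neutrophil and type I interferon lists among those with more than 1 gene tested. Of neutrophil genes, S100a9, a calcium-binding protein of neutrophil granules, read 11.49 in replicate 1 and 6.98 in replicate 2, against 6.74 and 6.59 at day 1. Cxcr2, the main neutrophil chemokine receptor, read 10.93 and 4.88, against 5.26 and 5.12. The mean of all 16 neutrophil genes on the array was 9.71 and 7.62 at day 0 and 7.50 at both day 1 samples. Ly6g, the surface marker that the gate was to remove, chosen here after its values were seen, read 9.22 and 5.93, against 5.95 and 6.37. The 25 type I interferon response genes tested were all higher in day 0 replicate 1 than in replicate 2, by a median of 1.04. Of 22 IFN-gamma response genes, 19 were higher in replicate 1, with a list median of 0.43. The lists of class II and costimulation and of matrix and proteases were lower in replicate 1, with medians of -0.37 and -0.39. Without replicate 1, no type I interferon gene fell at day 1, and of the 7 neutrophil genes then still tested Ngp and Mmp9 fell. With 2 arrays a group, many results turn on 1 array, and values without single arrays are given for part of them.

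Of the 11074 genes, 2835 (25.6%) differed between the days at an adjusted p under 0.05 (limma, Benjamini-Hochberg over all genes tested). Of these, 1041 (9.40%) were higher and 1794 (16.2%) lower at day 1. With each array centred on its median, 2576 passed, 1222 higher and 1354 lower, so that the share of calls that were higher moved from 36.7% to 47.4%. The count was 1672 without day 0 replicate 1. Changes of at least 2-fold were more often falls: 152 genes (1.37%) rose and 519 (4.69%) fell by that much, and at least 8-fold it was 5 (0.0452%) and 45 (0.406%). The median difference over all genes tested was -0.03. Differences below are day 1 minus day 0 on the log2 scale, with the standard error of the fit and 2 arrays a group. Values near 5 to 7 lie at the low end of the intensity range, where differences may be understated.

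The largest rise was that of Vcan, which encodes versican, a proteoglycan that monocytes lay down in matrix. It read 8.22 and 8.73 at day 0 and 13.13 and 12.97 at day 1, a rise of 4.57 ± 0.70 or 23.8-fold (adjusted p = 6.5e-06). Chil3 (Ym1), a chitinase-like protein, rose from 8.44 and 8.26 to 11.56 and 11.60. Timp1, an inhibitor of matrix proteases, rose from 7.50 and 9.01 to 11.72 and 11.25. Gja1 (connexin 43), a gap junction protein, rose from 8.20 and 8.89 to 11.62 and 11.34 (2.93 ± 0.27, adjusted p = 3.2e-10). In each of these 4 genes both day 1 arrays lay above both day 0 arrays by 2 or more log2 units. The largest named rises and falls were picked among genes whose arrays do not overlap between the days. The other 8 among the 12 largest named rises were Ly6a2, Tarm1, Serpinb10, Saa3 (an acute-phase serum amyloid), Klra2, Itga1 (an integrin chain that binds collagen), F10 (coagulation factor X) and Met (the receptor of hepatocyte growth factor), which rose by 2.46 to 3.15.

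The falls were larger. Cd209f, a C-type lectin gene of the DC-SIGN family, read 13.14 and 13.36 at day 0, among the brightest values, and 5.38 and 5.62 at day 1, a difference of -7.75 ± 0.52 (adjusted p = 1.5e-13). Retnla (RELM-alpha), a secreted protein induced by IL-4, read 12.97 and 13.12 at day 0 and 6.60 and 7.47 at day 1. Vsig4, a complement receptor of resident macrophages, read 11.58 and 11.57 and then 5.70 and 6.01. All 3 went from bright to below the floor. The difference was -5.43 for Cmah, an enzyme that modifies sialic acid, -4.75 for P3h2, a collagen prolyl hydroxylase, -4.49 for Hpgd, which inactivates prostaglandins, and -4.24 for Enpep, an aminopeptidase. The remaining 5 of the 12 largest falls were Cd209d, Cd209a, C4b, Lyve1 and the neutrophil gene Ngp.

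**Figure D1:**
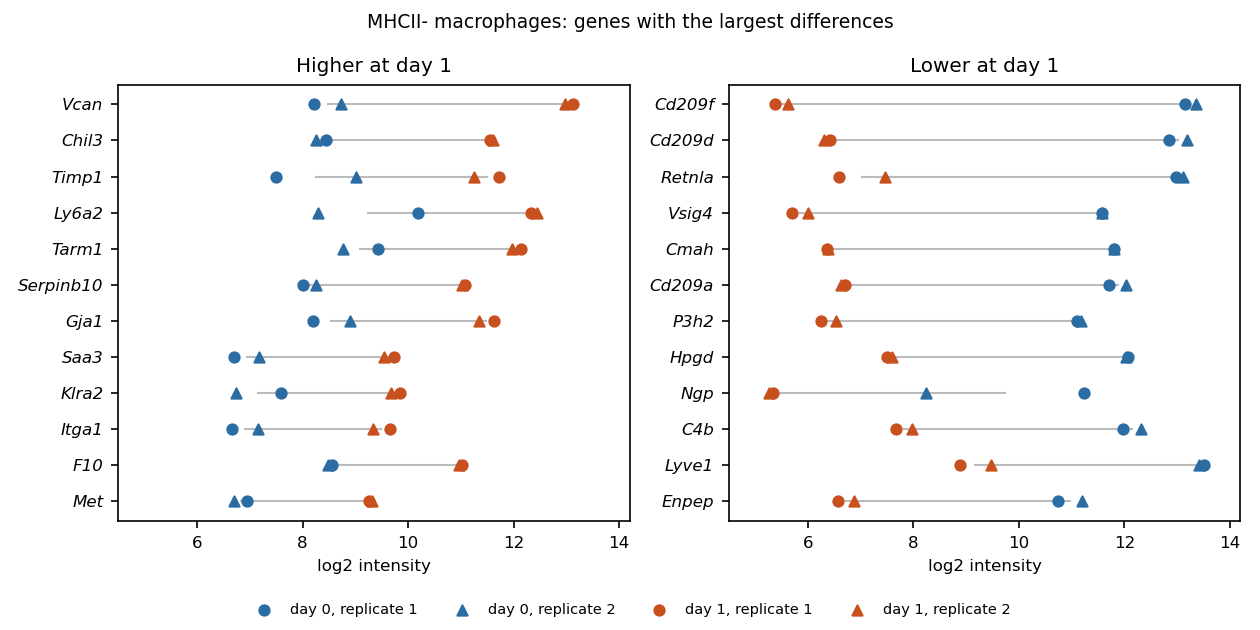
Log2 intensity in each array of the genes with the 12 largest named rises and the 12 largest falls at day 1 against day 0 in MHCII- macrophages. Points are single arrays, 2 a day. Both arrays of a day lie close together for most genes, and Ngp is the widest pair at day 0, at 11.23 and 8.24.

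Of the 25 resident macrophage genes tested, 19 fell and none rose, and their median difference was -1.97 against -0.03 over all genes. All 25 were lower in both day 1 arrays than in both day 0 arrays, where 73.0% of all genes tested had groups that did not overlap in either direction. The count of 19 was the same without day 0 replicate 1. Lyve1, a hyaluronan receptor, read 13.50 and 13.41 at day 0 and 8.88 and 9.47 at day 1 (-4.28 ± 0.41, adjusted p = 7.6e-10). Timd4 (TIM-4), a receptor for phosphatidylserine on dying cells, read 10.09 and 10.32 and then 6.88 and 7.01 (-3.26 ± 0.17). Clec10a, a lectin for galactose-type sugars, fell by 3.03, Ccl8, a chemokine, by 1.97, and Cd163, the receptor for haptoglobin-hemoglobin, by 1.67. Of the 25 genes, 6 did not pass. Among these, Mrc1, the mannose receptor, was bright: it read 13.01 and 13.09 at day 0 and 12.85 and 12.84 at day 1, a difference of -0.20. The differences of Pf4, F13a1, Maf, Cbr2 and Stab1 were -0.19, -0.23, -0.35, -0.58 and -0.65. In bulk samples, fewer cells of a type and less RNA per cell cannot be told apart.

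The Cd209 genes lie next to each other in a single run on chromosome 8 of the RefSeq annotation (GRCm38.p6), in the order Cd209a, Cd209e, Cd209d, Cd209b, Cd209c, Cd209f and Cd209g. All 7 were tested and 7 fell. The smaller members, Cd209e, Cd209b, Cd209c and Cd209g, are named here after their values were seen. From the first to the last, the differences were -5.20, -1.46, -6.65, -3.51, -1.06, -7.75 and -3.70. Of the genes at the ends of the run, Clec4g, another lectin gene, had a difference of -0.43 (adjusted p = 0.033) and Evi5l one of 0.11 (adjusted p = 0.53). Clec4g lay below the floor on both days, at means of 6.92 and 6.49, which left it little room to fall. In MHCII+ macrophages its difference was -1.93. Cd209c also lay below the floor on both days, at 7.10 and 6.04. The 7 genes are similar in sequence, and signal shared between their probe sets was not tested.

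Genes of Ly6C-high monocytes went the other way. Of 17 tested, 14 rose and none fell, with a median of 1.15, and 11 rose without day 0 replicate 1 (median 1.48) and 9 without day 0 replicate 2 or without day 1 replicate 1. Plac8, a small cysteine-rich protein of monocytes, read 10.00 and 8.63 at day 0 and 11.87 and 11.61 at day 1 (2.42 ± 0.41, adjusted p = 2.6e-05). F10 read 8.56 and 8.49 and then 11.03 and 10.96. Both day 1 arrays lay above both day 0 arrays for 16 of the 17 genes, where 73.0% of all genes tested had groups that did not overlap in either direction. Vcan, Chil3 and F10 of the list were picked among genes without overlap. Ccr2, the receptor that brings monocytes into tissue, read 11.66 and 11.29 at day 0 and 12.78 and 12.73 at day 1 (1.28 ± 0.37, adjusted p = 0.0091). The adjusted p of Ccr2 was 0.09 without day 0 replicate 2 and 0.058 without day 1 replicate 1. Fn1, Thbs1 and S100a6 of the list, with differences of 0.77, 0.68 and 0.51, did not pass. Ly6c2, which encodes Ly6C itself, has no probe set of a single symbol and was not analysed here.

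Of the 12 general macrophage genes, 5 fell and 2 rose, against 3 and 1 without day 0 replicate 1. Cx3cr1, the fractalkine receptor, read 10.63 and 10.15 at day 0 and 9.05 and 9.54 at day 1 (-1.09 ± 0.18). Mertk, a receptor for the uptake of dying cells, fell by 0.88 and Csf1r, the receptor that keeps macrophages alive, by 0.72. The differences of Adgre1 (F4-80, the gating marker) and Cd68 were smaller, -0.32 (adjusted p = 0.033) and -0.19 (adjusted p = 0.043), and neither passed when any of the 4 arrays was left out, with adjusted p of 0.077 to 0.17 and 0.059 to 0.29. The rises of Itgam, the CD11b chain of the gate (0.56, adjusted p = 0.043), and of Fcgr1, a high-affinity IgG receptor (0.69, adjusted p = 0.026), also turned on single arrays. Without any 1 of the 4 arrays the adjusted p of Itgam was 0.074 to 0.24, and that of Fcgr1 was 0.0042 without day 0 replicate 1, 0.48 without day 0 replicate 2, and 0.16 and 0.062 without day 1 replicate 1 and 2.

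The genes that present antigen were lower at day 1. H2-Aa and H2-Ab1 encode the chains of the class II molecule that the gate reads as a surface protein. H2-Aa read 11.03 and 11.83 at day 0 and 7.95 and 7.94 at day 1 (-3.49 ± 0.22, adjusted p = 5.1e-14). H2-Ab1 read 10.88 and 11.59 and then 8.06 and 7.81 (-3.30 ± 0.15, adjusted p = 2.0e-17), so that the groups were separated by more than 2 log2 units in both genes. Cd74, the invariant chain that escorts class II, fell by 1.86 and H2-Eb1, a further class II chain, by 1.72. Of 11 genes of class II and costimulation tested, 6 fell and 1 rose, with a median of -0.71, and 6 fell without day 0 replicate 1. Cd40, which receives help from T cells, read 10.42 and 10.32 and then 9.34 and 9.43, a fall of 0.98. The 1 rise was that of Cd80, a costimulatory ligand (0.69, adjusted p = 0.03), whose adjusted p was 0.53 without day 0 replicate 1, 0.14 without day 1 replicate 1 and 0.093 without day 1 replicate 2. Ciita, the regulator of class II transcription, differed by -0.45 and did not pass.

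Complement genes fell. Of 15 tested, 9 fell and none rose, with a median of -0.90, and 9 fell without day 0 replicate 1. C4b, a component of the classical pathway, read 11.97 and 12.32 at day 0 and 7.67 and 7.98 at day 1 (-4.32 ± 0.28, adjusted p = 6.7e-14). C1qc, a chain of C1q, read 13.39 and 13.33 and then 11.84 and 12.02 (-1.43 ± 0.13). C6, part of the membrane attack complex, fell by 2.50 and C2 by 1.54. The receptors C3ar1 and C5ar1, at -0.19 and 0.12, did not pass.

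Of 19 genes for the uptake of dying cells (efferocytosis), 9 fell and none rose, with a median of -0.65, and 8 fell without day 0 replicate 1. Beside Timd4, these included both bridging ligands of the TAM receptors. Gas6 read 12.15 and 12.20 at day 0 and 9.55 and 9.68 at day 1 (-2.56 ± 0.23), and Pros1 (protein S) read 11.41 and 11.60 and then 9.14 and 9.23 (-2.32 ± 0.22). Of the receptors, Axl fell by 2.13 and Mertk by 0.88. The integrin chains Itgav, Itgb3 and Itgb5 did not pass.

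Iron and heme handling had 8 falls and no rise among 16 genes (median -0.71), and 6 falls and 1 rise without day 0 replicate 1. Slc40a1 (ferroportin), the iron exporter, read 10.51 and 10.45 at day 0 and 6.66 and 6.84 at day 1 (-3.73 ± 0.45, adjusted p = 7.3e-08). Cp (ceruloplasmin), the oxidase that works with it, read 10.12 and 10.46 and then 6.45 and 6.29. Trf (transferrin) fell by 1.78. The ferritin chains Fth1 and Ftl1, at -0.08 and -0.14, and Hmox1, which breaks down heme, at -0.41, did not pass.

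Of 16 lipid handling genes, 7 fell and 1 rose (median -0.68), and 7 fell without day 0 replicate 1. Trem2, a lipid receptor, read 12.75 and 12.66 at day 0 and 11.65 and 11.64 at day 1 (-1.06 ± 0.14). Gpnmb, a transmembrane glycoprotein of lipid-laden macrophages, fell by 1.13 and Lpl (lipoprotein lipase) by 1.19. The rise was that of Sqle, a cholesterol synthesis enzyme (0.64, adjusted p = 0.013), with adjusted p of 0.13 without day 0 replicate 1 and 0.17 without day 1 replicate 1. Among 27 lysosome genes 8 fell and none rose, with a median of -0.16, and 6 fell without day 0 replicate 1. Atp6v0d2, a subunit of the proton pump, stood out in size, at 11.34 and 12.07 and then 8.87 and 8.97 (-2.78 ± 0.15, adjusted p = 5.0e-16). The other lysosomal falls were of 1.00 or less, and the subunits Atp6v0d1, Atp6v1a, Atp6v1b2 and Atp6v1h did not pass.

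**Figure D2:**
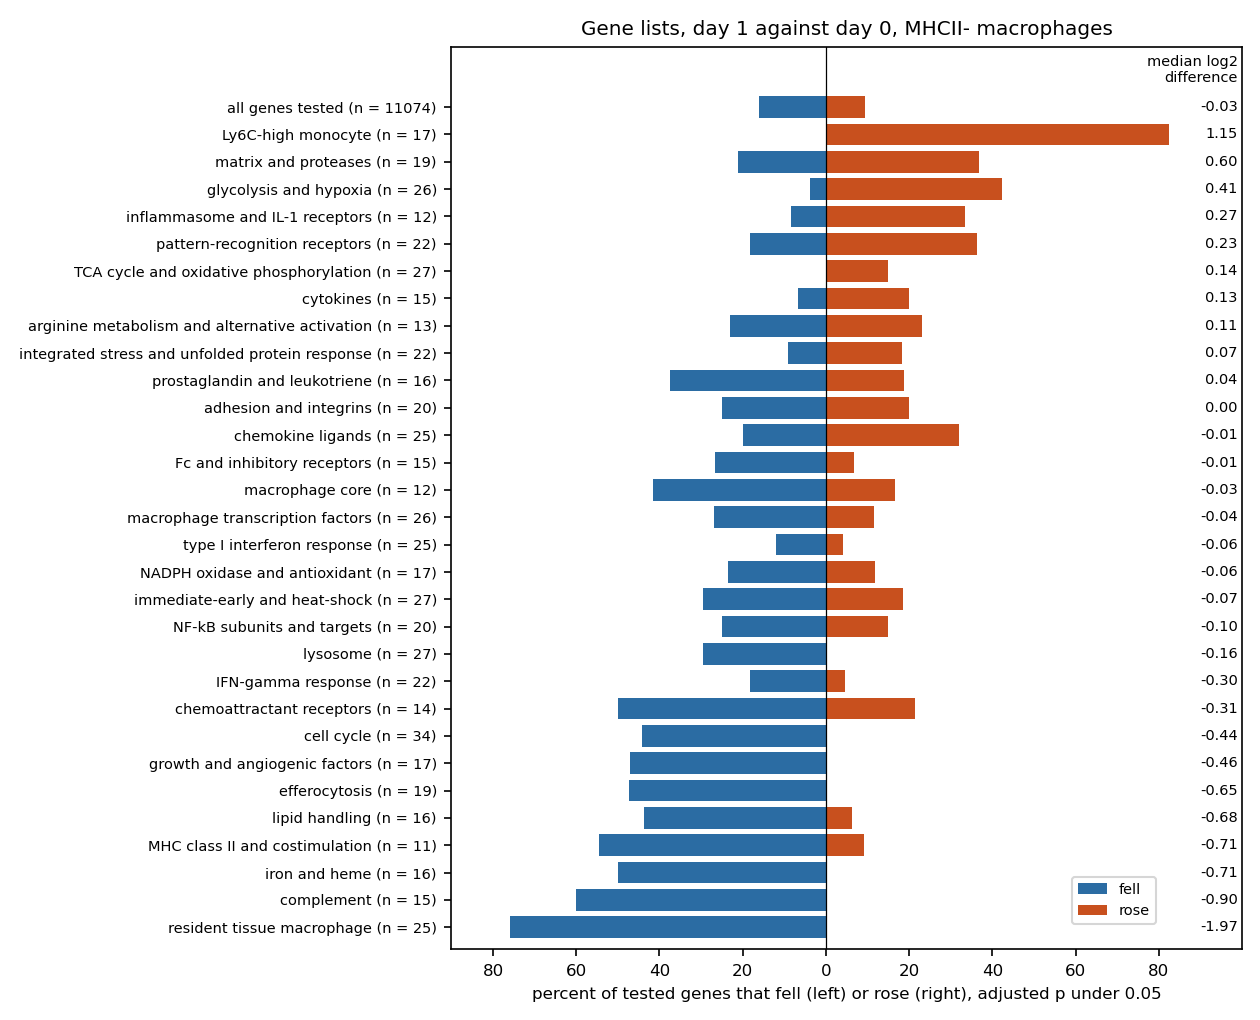
Percent of the tested genes of each pathway list that fell (bars to the left) or rose (bars to the right) at day 1 against day 0 in MHCII- macrophages, with all genes tested at the top and the median log2 difference of each list at the right edge. Ly6C-high monocyte genes have the longest bar to the right and a median of 1.15, and resident macrophage genes the longest to the left and a median of -1.97.

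Inflammatory mediators did not move as a block. Of 15 cytokine genes tested, 3 rose and 1 fell. Il1b (interleukin-1 beta) read 12.25 and 12.01 at day 0 and 13.16 and 12.86 at day 1 (0.88 ± 0.19, adjusted p = 6.9e-04). Its groups did not overlap, as was the case for 73.0% of all genes tested. Tnfsf14 (LIGHT) rose by 0.78. Tnf read 11.87 and 11.70 and then 12.05 and 11.80, Il6 6.89 and 7.87 and then 8.09 and 6.93, and Il10 10.38 and 10.58 and then 10.03 and 9.95. None of these 3 passed, and Tnf was bright in all 4 samples. Osm (oncostatin M) rose by 0.99 (adjusted p = 0.011), with adjusted p of 0.27 without day 0 replicate 1 and 0.093 without day 1 replicate 1, and Il15 fell by 1.26, with an adjusted p of 0.058 without day 0 replicate 1.

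Of 12 genes of the inflammasome and IL-1 receptors, 4 rose and 1 fell, and 5 rose without day 0 replicate 1. Nlrp3, an inflammasome sensor, read 9.56 and 9.68 at day 0 and was higher in both day 1 arrays (1.32 ± 0.28, adjusted p = 5.9e-04). Mefv (pyrin), another sensor, read 8.13 and 8.27 and then 9.77 and 9.81. Il1r2, a decoy receptor, rose by 1.58 and Il1rap, the accessory chain of the receptor, by 1.26. Casp4 (caspase-11) fell by 1.05. Casp1 (-0.39), the sensors Nlrc4 (-0.58), Aim2 (-0.24) and Nlrp1b (0.08), and Il18rap (0.50), a chain of the IL-18 receptor, did not pass.

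Of 22 pattern-recognition genes, 8 rose and 4 fell, against 7 and 3 without day 0 replicate 1. The rises included receptors of the TREM and C-type lectin families. Trem1, an amplifier of inflammatory signals, read 8.60 and 9.22 at day 0 and 11.46 and 11.21 at day 1 (2.42 ± 0.54, adjusted p = 0.001), and Clec4n (dectin-2) rose by 1.19. Trem3 rose by 1.98 and Clec4e (Mincle), a receptor for ligands of dead cells, by 1.97. Their adjusted p became 0.052 without day 0 replicate 2 and 0.076 without day 0 replicate 1. Of the 5 endosomal receptors of nucleic acids on the list, 3 fell. Tlr8 read 12.34 and 12.15 and then 11.04 and 11.01, Tlr3 fell by 1.41 and Tlr7 by 0.88, while Tlr9 (-0.28) and Tlr13 (0.10) did not pass. Tlr2, at 0.25, and Tlr4, at -0.44, did not pass.

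Among 25 chemokine genes 8 rose and 5 fell. The rises numbered 5 without day 0 replicate 1, 4 without day 0 replicate 2 and 2 without day 1 replicate 1. Ppbp (CXCL7), a neutrophil attractant also stored in platelets, read 11.98 and 11.50 at day 0 and 13.66 and 13.40 at day 1 (1.79 ± 0.34, adjusted p = 1.3e-04). The other 5 platelet genes tested did not pass, and the mean of all 7 on the array was 8.82 and 8.74 at day 0 and 9.06 and 8.99 at day 1. Cxcl13, which attracts B cells, read 8.61 and 8.41 and then 5.94 and 6.29. Ccl8 and Ccl24, chemokines of resident macrophages, fell by 1.97 and 1.28, and Cxcl16, the ligand of CXCR6, by 1.21. Rises of Ccl12 (1.60) and Cxcl10 (1.33) were lost without day 0 replicate 2, at adjusted p of 0.24 and 0.34, and that of Cxcl3 (1.45) without day 0 replicate 1, at 0.32. Without day 1 replicate 1 the adjusted p of Ccl12, Cxcl10 and Cxcl3 was 0.08, 0.13 and 0.13.

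Of 14 chemoattractant receptors, 3 rose and 7 fell, against 3 and 5 without day 0 replicate 1. Ltb4r1, the high-affinity receptor of leukotriene B4, read 7.66 and 7.62 at day 0 and 10.08 and 9.66 at day 1 (2.23 ± 0.19, adjusted p = 5.1e-11). Ccr1 read 10.70 and 10.60 and then 11.71 and 11.64. S1pr1, the sphingosine 1-phosphate receptor by which cells leave tissue, read 10.62 and 10.69 and then 8.66 and 8.67 (-1.99 ± 0.15), and Cxcr3 fell by 1.23. The day 0 and day 1 samples did not overlap for any of these 4, as was the case for 73.0% of all genes tested.

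Interferon response genes depended on the day 0 replicate. Of 25 type I interferon genes, 1 rose and 3 fell, with a median of -0.06. Without day 0 replicate 1, 7 rose and none fell (median 0.48), and without day 0 replicate 2, none rose and 10 fell (median -0.51). The list mean was 10.60 and 9.42 at day 0 and 10.02 and 9.79 at day 1, so both day 1 samples lay between the day 0 samples. In MHCII+ macrophages it was 10.07 and 9.46 at day 0 and 10.15 and 9.85 at day 1, so that replicate 1 was the higher in both gates on both days. Ifit2, an interferon-induced RNA-binding protein, read 10.29 and 7.75 and then 7.74 and 7.37, a difference of -1.47 (adjusted p = 0.015) that became -0.20 (adjusted p = 0.84) without day 0 replicate 1 and had an adjusted p of 0.13 without day 1 replicate 2. Zbp1, a nucleic acid sensor, had a difference of 0.79, of 1.60 without day 0 replicate 1 and of -0.02 without day 0 replicate 2.

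Of 22 genes of the IFN-gamma response, 4 fell and 1 rose (median -0.30), where 16.2% of all genes tested fell and 9.40% rose. These counts also depended on the day 0 replicate, since 19 of the 22 genes were higher in day 0 replicate 1 than in replicate 2. Irf1, a transcription factor of the pathway, read 11.61 and 11.33 at day 0 and 9.66 and 9.31 at day 1 (-1.99 ± 0.24, adjusted p = 7.3e-08). Iigp1, a GTPase that acts on parasite vacuoles, read 8.85 and 8.42 and then 5.78 and 5.88 (-2.81 ± 0.34). These 2 falls kept an adjusted p under 0.05 without any 1 of the 4 arrays. Nos2, the inducible nitric oxide synthase, lay between 6.72 and 6.85 in all 4 samples.

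**Figure D3:**
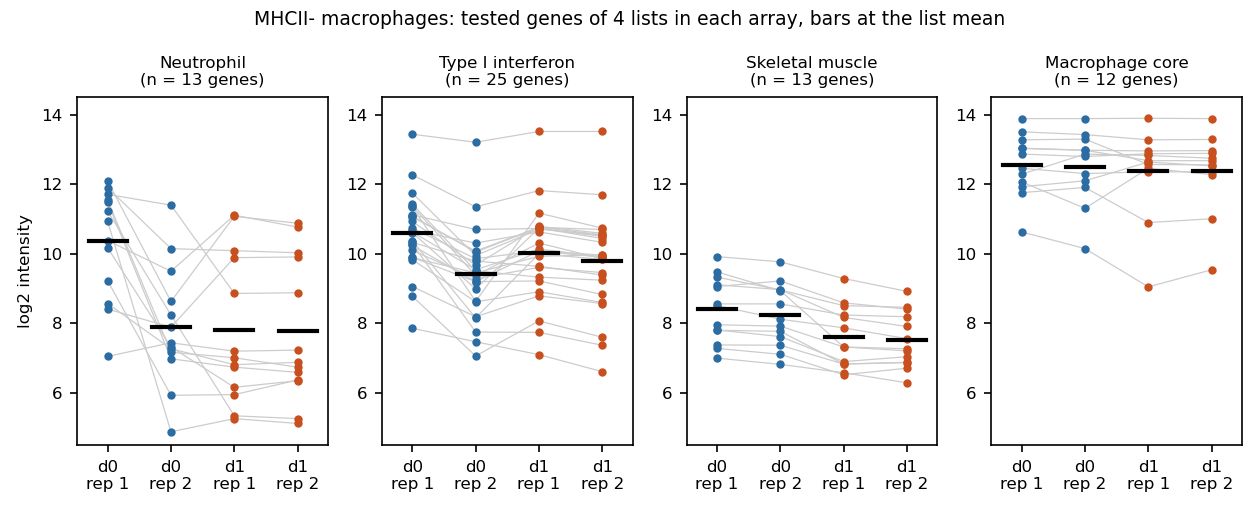
Log2 intensity of the tested genes of 4 lists in each of the 4 MHCII- arrays; each point is a gene, grey lines join a gene across arrays and black bars are the list means. The day 0 means of the type I interferon list lie at 10.60 and 9.42, with the day 1 means between them, and the neutrophil mean is high in day 0 replicate 1 (10.36) and between 7.77 and 7.91 in the other 3 arrays.

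Genes of glycolysis and the response to low oxygen were mostly higher at day 1, by amounts near the limit of the design. Of 26 tested, 11 rose and 1 fell, with a median of 0.41 against -0.03 over all genes. Slc16a3, the lactate exporter, read 10.29 and 10.44 at day 0 and 11.69 and 11.47 at day 1 (1.21 ± 0.37, adjusted p = 0.013). Slc2a1, the glucose transporter GLUT1, read 10.79 and 11.49 and then 12.28 and 12.10 (1.06 ± 0.34, adjusted p = 0.019). Hif1a, the factor that drives the low-oxygen response, read 11.53 and 12.09 and then 12.81 and 12.54 (0.86 ± 0.21, adjusted p = 0.0026). The groups did not overlap in these 3 genes, as in 73.0% of all genes tested. The count of rises was 1 without day 0 replicate 1, 8 without day 0 replicate 2, 2 without day 1 replicate 1 and 4 without day 1 replicate 2, while the median stayed between 0.37 and 0.41. Without day 0 replicate 1, the adjusted p was 0.092 for Slc16a3, 0.28 for Slc2a1 and 0.12 for Hif1a, and without day 1 replicate 1 it was 0.099, 0.12 and 0.055. That of Slc2a1 was 0.059 without day 1 replicate 2. The 1 fall was that of Slc2a3 (GLUT3), from 9.08 and 8.04 to 7.45 and 7.55. Hk2 (0.10), Ldha (0.31) and Vegfa (0.58) did not pass.

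The core of the hypoxia response element, ACGTG, was searched on both strands of RefSeq promoters (GRCm38.p6), each 300 bases around a start. The promoters of the 3 genes described above are shown because they hold the motif, which is in capitals (as CACGT where it lies on the other strand). The region of Slc2a1 is chr4:119108495-119108794 (plus strand), that of Slc16a3 chr11:120948817-120949116 (plus strand) and that of Hif1a chr12:73907617-73907916 (plus strand).
Slc2a1: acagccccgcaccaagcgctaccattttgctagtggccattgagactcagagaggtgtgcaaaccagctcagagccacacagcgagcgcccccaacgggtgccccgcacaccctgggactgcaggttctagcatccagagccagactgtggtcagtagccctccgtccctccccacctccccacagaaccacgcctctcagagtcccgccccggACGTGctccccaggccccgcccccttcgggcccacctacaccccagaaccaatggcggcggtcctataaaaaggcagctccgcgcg
Slc16a3: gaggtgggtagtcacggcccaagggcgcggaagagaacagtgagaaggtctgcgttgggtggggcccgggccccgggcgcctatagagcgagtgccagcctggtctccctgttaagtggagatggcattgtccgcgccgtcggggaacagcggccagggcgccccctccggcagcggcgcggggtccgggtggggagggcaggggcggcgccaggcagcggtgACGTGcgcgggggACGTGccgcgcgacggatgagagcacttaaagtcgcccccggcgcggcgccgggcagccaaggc
Hif1a: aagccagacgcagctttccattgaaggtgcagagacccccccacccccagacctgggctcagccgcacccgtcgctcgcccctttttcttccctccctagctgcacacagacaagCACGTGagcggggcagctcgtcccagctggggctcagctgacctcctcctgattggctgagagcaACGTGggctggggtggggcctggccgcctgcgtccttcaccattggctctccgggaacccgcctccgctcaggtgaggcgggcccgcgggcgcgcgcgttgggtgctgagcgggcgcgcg
Slc2a1 holds 1 match, Slc16a3 holds 2 and Hif1a holds 3, of which 2 overlap as a palindrome. Of 11 promoters of the genes of the list that rose (10 genes matched), 7 held the motif (63.6%), and of 21 promoters of the members that did not pass (14 genes matched), 14 did (66.7%). The shares were alike in the genes that rose and in those that did not pass. It was in 6447 of all 32851 promoters (19.6%) and in 25.7% of those of tested genes. A match is a description of these letters and not evidence of binding.

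Of 27 genes of the tricarboxylic acid cycle and oxidative phosphorylation, 4 rose and none fell (median 0.14), and 2 rose without day 0 replicate 1. Mdh2 (malate dehydrogenase) read 11.55 and 11.70 at day 0 and 12.29 and 12.24 at day 1, and Cox5b, a chain of cytochrome oxidase, rose by 0.58. In arginine metabolism and alternative activation, 3 of 13 genes rose and 3 fell. Mgl2, a lectin of alternatively activated macrophages, read 11.94 and 11.88 and then 8.09 and 8.06 (-3.83 ± 0.34), and fell with Retnla and Clec10a, while Chil3 rose. Odc1, which makes polyamines, rose by 1.15. Arg1 (arginase 1) read 9.31 and 11.17 and then 12.31 and 11.72, a rise of 1.77 (adjusted p = 0.03). Its adjusted p was 0.51 without day 0 replicate 1, 0.2 without day 1 replicate 1 and 0.058 without day 1 replicate 2.

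Of 19 matrix and protease genes, 7 rose and 4 fell. The numbers were 4 and 3 without day 0 replicate 1, and without day 1 replicate 1 it was 3 and 3. Beside Vcan and Timp1, the list held opposite changes of inhibitors and proteases. Timp2, an inhibitor, read 12.91 and 12.84 at day 0 and 10.75 and 10.94 at day 1 (-2.04 ± 0.11, adjusted p = 5.0e-16), opposite to Timp1. Mmp9, a gelatinase, read 11.71 and 11.40 and then 8.86 and 8.88, alike in both day 0 samples although it is also a neutrophil gene. Mmp12, an elastase, fell by 1.33. Mmp8, also made by neutrophils, rose by 1.00, with adjusted p of 0.33 without day 0 replicate 2 and 0.16 without day 1 replicate 1.

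Growth factor genes fell or did not pass. Of 17 tested, 8 fell and none rose (median -0.46), with 6 falls without day 0 replicate 1 and 5 without day 1 replicate 2. Igf1, a growth factor for muscle, read 11.91 and 11.94 at day 0 and 9.01 and 9.34 at day 1 (-2.75 ± 0.14, adjusted p = 1.2e-16). Bmp2, a bone morphogenetic protein, read 10.13 and 9.80 and then 7.43 and 7.41, and Pdgfc, a platelet-derived growth factor, 10.66 and 10.65 and then 8.56 and 8.73. The day 0 and day 1 samples of these 3 genes did not overlap, as in 73.0% of all genes tested. Vegfb fell by 1.18, while Vegfa (0.58) and Tgfb1 (-0.03) did not pass.

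Of 16 genes of prostaglandin and leukotriene metabolism, 6 fell and 3 rose. The falls were the same in number without day 0 replicate 1, when none rose. Hpgd read 12.06 and 12.03 at day 0 and 7.50 and 7.60 at day 1 (-4.49 ± 0.25, adjusted p = 1.6e-15). Hpgds, which makes prostaglandin D2, read 11.55 and 11.57 and then 8.69 and 9.10, and Alox5, which starts leukotriene synthesis, 11.54 and 11.37 and then 9.11 and 9.17. Ptgs2 (COX-2), which starts prostaglandin synthesis, rose from 11.22 and 12.18 to 13.21 and 12.92 (1.36 ± 0.33, adjusted p = 0.0019), and its adjusted p was 0.12 without day 0 replicate 1. The rises of Pla2g4a (0.59) and Ptges (0.42) were lost when any of the 4 arrays was left out, at adjusted p of 0.076 to 0.26 and 0.075 to 0.079.

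Of 26 macrophage transcription factors, 7 fell and 3 rose. They numbered 5 and none without day 0 replicate 1, and without day 1 replicate 1 it was 5 and 1. Irf4 read 9.58 and 9.13 at day 0 and 7.42 and 7.56 at day 1 (-1.87 ± 0.26, adjusted p = 1.1e-06), and Bhlhe41, a repressor found in tissue macrophages, 8.20 in both and then 6.61 and 6.44. Mef2c fell by 1.17 and Klf2, a factor that restrains inflammation, by 1.25. Spi1 (PU.1), the lineage factor, at -0.02, Maf, at -0.35, and Cebpb, at 0.20, did not pass. Runx3 rose by 1.13, with an adjusted p of 0.16 without day 0 replicate 1.

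Cell cycle genes were lower at day 1. Of 34 tested, 15 fell and none rose (median -0.44). The falls numbered 6 without day 0 replicate 1, 12 without day 0 replicate 2, 8 without day 1 replicate 1 and 10 without day 1 replicate 2. Ccna2 (cyclin A2) read 9.46 and 8.87 at day 0 and 6.36 and 6.50 at day 1 (-2.74 ± 0.36, adjusted p = 3.1e-07). Ccnb2 (cyclin B2) read 10.45 and 9.88 and then 8.06 and 8.35, and Mki67, a marker of dividing cells, 9.09 and 8.95 and then 7.21 and 7.48. These 3 falls kept an adjusted p under 0.05 without any 1 of the 4 arrays.

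Of 27 immediate-early and heat-shock genes, 5 rose and 8 fell. Without day 0 replicate 1, none rose and 6 fell. Without day 1 replicate 1, 1 rose and 8 fell, and without day 1 replicate 2, 3 rose and 6 fell. Jun read 13.13 and 12.88 at day 0 and 11.99 and 11.93 at day 1 (-1.04 ± 0.24), and Hspa1a, an inducible heat-shock protein, 11.85 and 12.22 and then 10.70 and 10.76 (-1.31 ± 0.23). The nuclear receptors Nr4a3 and Nr4a2 and the phosphatase Dusp5 rose by 1.56, 1.30 and 1.37, and their adjusted p was 0.19, 0.45 and 0.089 without day 0 replicate 1. That of Nr4a3 and Nr4a2 was 0.055 and 0.087 without day 1 replicate 1. Fos (-0.35), Junb (-0.07) and Atf3 (-0.45) did not pass. Of 22 genes of the integrated stress and unfolded protein responses, 4 rose and 2 fell, and without day 0 replicate 1 none rose and 1 fell, Herpud1, by 1.03 with all arrays. Of 20 NF-kB genes, 3 rose and 5 fell, and without day 0 replicate 1 none rose and 3 fell. Birc3, an inhibitor of cell death, fell by 0.71 and Icam1, an adhesion molecule, by 0.73, while Nfkbia (-0.18) and Tnfaip3 (-0.12) did not pass.

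Of 20 adhesion genes, 4 rose and 5 fell. The counts were 3 and 4 without day 0 replicate 1, and 1 and 4 in the fewest. Itga1 read 6.67 and 7.16 at day 0 and 9.65 and 9.34 at day 1, and Itga9, which binds tenascin and other matrix proteins, 10.37 and 10.03 and then 8.24 and 8.41. Of 17 genes of the NADPH oxidase and antioxidant enzymes, 2 rose and 4 fell, and Cat (catalase) fell by 1.12. Of 15 Fc and inhibitory receptors, 1 rose and 4 fell, and Siglec1 (sialoadhesin) fell by 1.05. The counts of these 2 lists are given with all arrays only. Among them, the calls of Slc7a11, Gclm, Gpx4, Fcgr1 and Fcgr3 were lost when some single arrays were left out.

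Of 13 neutrophil genes tested, 9 fell and 2 rose (median -1.41). Of the 16 on the array, 4 lay below the floor at day 0 and 11 at day 1. Genes that reached the floor only through day 0 replicate 1 had little room but to fall. The count and median therefore follow in part from the filter. Without day 0 replicate 1, 7 were still tested, of which 2 fell and 3 rose (median -0.09). Cd177, a neutrophil surface protein, rose from 8.41 and 7.89 to 9.89 and 9.91 (1.75 ± 0.20), opposite to Ngp and S100a9. Of 13 skeletal muscle genes, 9 fell, and 4 without day 0 replicate 1. The mean of all 15 on the array was 8.13 and 8.00 at day 0 and 7.44 and 7.34 at day 1, with 5 below the floor at day 0 and 9 at day 1. Myl1, a myosin light chain, read 9.48 and 8.94 and then 7.32 and 7.27.

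The mean of 11 fibroblast genes was 8.08 and 8.04 at day 0 and 7.39 and 7.38 at day 1, with 5 below the floor at day 0 and 6 at day 1. Dcn (decorin), a matrix proteoglycan, read 10.32 and 9.82 and then 6.53 and 6.61, while Col1a1 and Col3a1, at -0.17 and -0.22, did not pass. Means of the endothelial, T cell, B cell, NK cell, mast cell and muscle stem cell lists lay between 5.81 and 7.54 in all 4 samples, near or below the floor of 7.57. The dendritic cell mean was 7.28 and 7.36 at day 0 and 6.68 and 6.70 at day 1. Of 6 dendritic cell genes tested, Cd209a and Zbtb46 fell, the latter only with all 4 arrays. The eosinophil mean was 6.82 and 6.74 and then 6.51 and 6.56, and Ccr3, 1 of 2 eosinophil genes tested, fell by 1.15. Only the day 1 gate required SiglecF-. The muscle fiber, fibroblast, dendritic cell and eosinophil means were thus lower at day 1 in the same samples in which resident macrophage genes fell. The median differences of the tested genes of these lists were -0.66, -0.18, 0.07 and -0.63. Of 8 fibroblast genes tested 6 did not pass, and of 6 dendritic cell genes 4 did not. The lowest differences of these 2 lists were those of Dcn (-3.50) and Cd209a (-5.20). The part of these other cells in the falls of resident macrophage genes was not tested.

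F4-80+ MHCII+ macrophages of DTR- mice, 2 arrays a day, share no array with the MHCII- samples. They have the same difference between the days in age, in array set and in the toxin named in the titles. Their titles were used, since the marker field of their day 1 samples also reads MHCII-. There, 3947 genes (35.6%) passed, 2063 (18.6%) higher and 1884 (17.0%) lower. Of the 2835 genes of MHCII- macrophages, 1733 passed in the same direction in MHCII+ macrophages, 61.1% of the former and 43.9% of the latter list, and 51 passed in opposite directions. Vcan behaved alike in both: in MHCII+ macrophages it read 7.31 and 7.75 and then 12.57 and 12.17, and the difference between the gates did not pass (adjusted p = 0.92). Chil3 in MHCII+ macrophages read 6.08 and 5.53 and then 9.37 and 9.11, and P3h2 fell by 4.53 there and by 4.75 in MHCII- macrophages.

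The change itself differed between the gates for 516 genes (4.66%) by the interaction of day and gate in the same limma model, 194 (1.75%) with a more positive change in MHCII- macrophages and 322 (2.91%) with a more negative one. Of the 2835 genes that passed in MHCII- macrophages, 311 also differed from MHCII+ macrophages. Retnla read 13.50 in both day 0 arrays of MHCII+ macrophages and 12.22 and 12.61 at day 1, so its change was more negative in MHCII- macrophages (difference -4.92, adjusted p = 6.3e-09). Vsig4 was already low in MHCII+ macrophages at day 0, at 7.49 and 6.98, and its changes differed by -4.08. Cd209a, Cd209d and Cd209f differed by -4.21, -3.11 and -2.88. The adjusted p of Cd209f was 0.016 and rose to between 0.052 and 0.088 without any 1 of 5 arrays: replicate 2 of day 0 in either gate, day 1 MHCII- replicate 1 and each day 1 MHCII+ replicate.

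Class II genes separated the gates, which were themselves sorted on surface class II. The level of these genes in each gate is therefore no result independent of the sort. H2-Ab1 read 13.97 and 13.94 at day 0 and 13.73 and 13.71 at day 1 in MHCII+ macrophages, and H2-Aa 13.86 and 13.89 and then 13.57 and 13.63. Their changes differed by -3.06 (adjusted p = 2.1e-11) and -3.21 (adjusted p = 3.4e-08), and that of Cd74 by -1.59. Such bright values lie near the top of the intensity range, where differences can be compressed. Igf1 and Timd4 fell in both gates and more so in MHCII- macrophages, by 1.36 and 1.51 (differences -1.36 and -1.51). Atp6v0d2 read 10.06 and 10.16 and then 9.65 and 9.86 in MHCII+ macrophages, and its changes differed by -2.43. Those of Hpgds, Bhlhe41, Itga9, Trem2 and Mertk differed by -2.23, -2.00, -1.94, -1.01 and -0.87, and the adjusted p of Mertk was 0.054 without day 1 MHCII+ replicate 1. That of Lyve1 differed by -1.94 (adjusted p = 0.049) and passed only with all 8 arrays, with 0.055 to 0.23 without any 1 of them.

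In the other direction, Serpinb10, a serine protease inhibitor of myeloid cells, read 10.31 and 10.46 and then 9.81 and 9.59 in MHCII+ macrophages, against its rise in MHCII- macrophages from 8.00 and 8.25 to 11.07 and 11.03 (difference 3.62, adjusted p = 2.4e-04). The leukotriene receptor Ltb4r1 had a difference of 1.80 (adjusted p = 4.4e-05). Klra2 had one of 2.03 (adjusted p = 0.0077), with an adjusted p of 0.087 without day 0 MHCII- replicate 2 and 0.058 without day 1 MHCII+ replicate 2. Several of the most positive differences were falls in MHCII+ macrophages of genes that were low in MHCII- macrophages at both days. Klri1, a killer cell lectin-like receptor, read 11.11 and 10.84 and then 8.36 and 8.10 in MHCII+ and 5.27 to 5.72 in all MHCII- samples. Akr1c18, Gpr141b and Cxcl9 had differences of 3.11, 3.03 and 2.52. That of Cxcl9 had an adjusted p of 0.13 without day 1 MHCII+ replicate 2, 0.061 without day 1 MHCII- replicate 1, 0.065 without day 0 MHCII- replicate 2 and 0.067 without day 0 MHCII+ replicate 2.

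**Figure D4:**
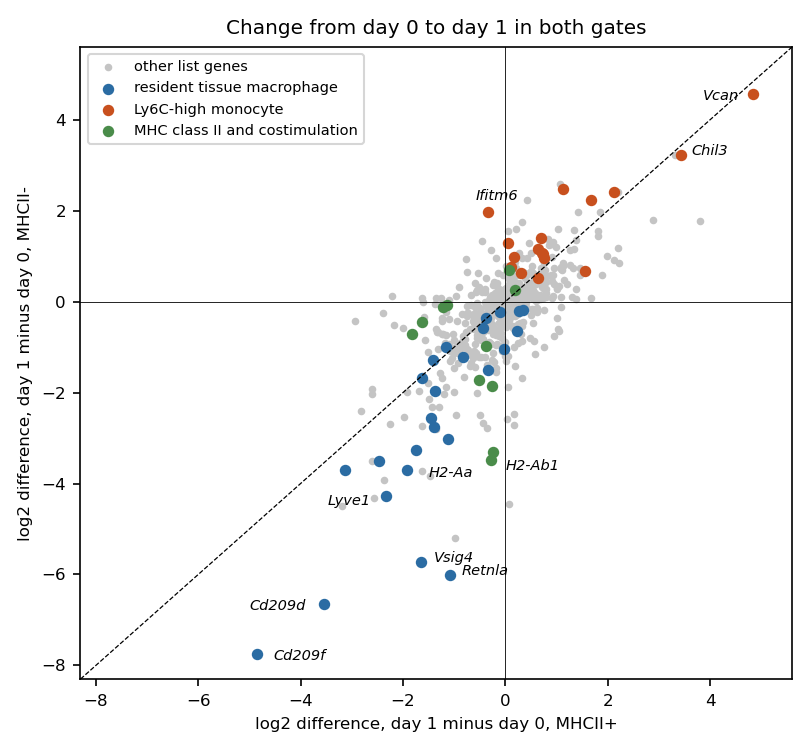
Log2 difference of day 1 minus day 0 in MHCII- macrophages (vertical axis) against that in MHCII+ macrophages (horizontal axis), one point a tested gene of the lists, with 3 lists in color; the dashed line marks equal change. Vcan and Chil3 lie near the line, while Retnla, Vsig4, H2-Aa and H2-Ab1 lie far below it.

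Day 1 samples of DTR+ mice and day 4 samples of DTR- mice were read beside these values. Both sets are compared with arrays that the comparison of day 1 and day 0 also uses, so values are set side by side and no overlap of calls is given. In the 2 DTR+ day 1 arrays, from mice that carry the receptor, Vcan read 13.11 and 13.14, Cd209f 6.11 and 5.91, Retnla 7.06 and 6.16, and H2-Ab1 8.29 and 7.97. Each lay near the DTR- day 1 values. The day 4 samples came from mice of 8 weeks sorted with the gate of day 1, but their titles name no toxin, unlike those of day 1. The part of the toxin in a difference between these days was not tested. At day 4, Vcan read 11.08 and 10.03, between days 0 and 1, and Chil3 read 8.76 and 8.67, near its day 0 values.

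Day 4 minus day 1 differed for 2680 genes (24.2%), 1870 (16.9%) higher and 810 (7.31%) lower at day 4. Of genes that had fallen, Igf1 read 12.12 and 12.13 at day 4 and Hpgd 11.21 and 11.35, near day 0. H2-Ab1 read 10.61 and 10.50, Vsig4 9.13 and 9.34 and Retnla 9.98 and 10.04, all between day 1 and day 0. Timd4, at 6.94 and 6.91, and Cd163, at 9.26 and 9.34, were as low as at day 1, with differences from day 1 of -0.02 (adjusted p = 0.95) and -0.47 (adjusted p = 0.33). Of genes that had risen, Arg1 read 8.81 and 8.53 and Ppbp 9.93 and 9.75, below their day 0 values, and Itga1 read 7.14 and 6.93, within its day 0 range. Cxcl10 was higher still, at 13.04 and 12.67, and Ccna2, which had fallen, was above its day 0 values at 10.53 and 10.44.

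**Figure D5:**
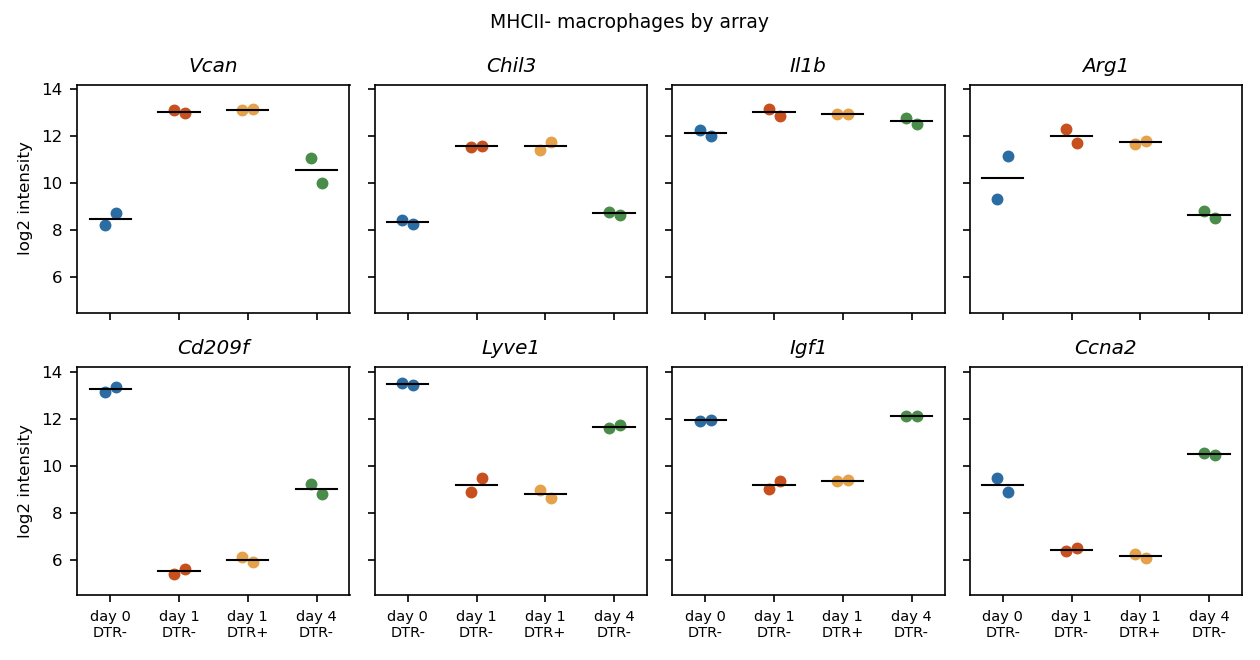
Log2 intensity of 8 genes in each MHCII- array at day 0, day 1 (DTR- and DTR+ mice) and day 4; points are arrays, 2 a group, and black bars are their means. Chil3 and Igf1 lie near their day 0 values at day 4, Vcan, Cd209f and Lyve1 between day 1 and day 0, and Ccna2 above day 0.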

How the data were processed

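RNA of sorted muscle macrophages was measured on 45 Affymetrix arrays. The authors deposited a series table of linear intensity values for 24922 probe sets, for which the submitters' processing notes name RMA and Affymetrix Power Tools without a version, and log2 of these values was taken. Of the probe sets, 21425 carry a single gene symbol in the platform annotation, 1399 carry several and 2098 are not listed. The brightest probe set of each gene was kept, giving 19752 genes, of which 11074 reached 7.57 (189.5 in linear units), the median of the table, in the mean of at least 1 group and were tested. All 45 arrays in 18 groups were fitted in limma 3.58.1 (R 4.3.3) with an intensity trend, and p-values were adjusted by Benjamini-Hochberg over all genes tested. The number of arrays limits the precision. Replicate numbers are shared between groups without a stated pairing, and no block was used. Named genes were the 12 largest rises and falls with an adjusted p under 0.05 and arrays that do not overlap, up to 4 genes of a list in each direction, up to 8 differences between the gates in each direction, and 19 set genes; other list members were named after their values were seen. These genes and the 44 gene lists were chosen with earlier results of these data known. Promoters and gene order came from RefSeq (GRCm38.p6). Alternatives were other scalings, filters, array sets and leaving out each array; calls within each gene list without day 0 replicate 1, and a replicate block within each day for the gates, were added after the data were seen. The method was tested on simulated data.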

Additional observations from a re-analysis of the deposited data

Results flagged for a closer look

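A change from day 0 to day 1 that differed between MHCII- and MHCII+ macrophages, by the interaction of day and gate (limma, adjusted p under 0.05), was found for 516 genes. The values below are the change in MHCII- minus that in MHCII+ macrophages, on the log2 scale.

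Genes whose change was more negative in MHCII- macrophages included resident macrophage genes: Retnla (-4.92), Vsig4 (-4.08), Cd209d (-3.11), Cd209f (-2.88), Lyve1 (-1.94), Timd4 (-1.51) and Igf1 (-1.36). Cd209a, which was on the dendritic cell list, had a value of -4.21. The change of class II genes was more negative as well, with H2-Aa at -3.21, H2-Ab1 at -3.06 and Cd74 at -1.59. The gates were sorted on the class II protein, so these values are not independent of the sort. Further genes were Atp6v0d2 (-2.43), Hpgds (-2.23), Bhlhe41 (-2.00), Itga9 (-1.94), Trem2 (-1.01), Mertk (-0.87) and Cd68 (-0.32). The neutrophil gene Ngp differed by -4.51, which became -3.01 (adjusted p = 0.14) without day 0 MHCII- replicate 1, the sample with high neutrophil genes.

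Genes whose change was more positive in MHCII- macrophages included Serpinb10 (3.62), Ifitm6 (2.31), Klra2 (2.03), Saa3 (1.94), Ltb4r1 (1.80) and Cd177 (1.43), which rose there. Akr1c18 (3.11), Klri1 (3.07), Gpr141b (3.03), Hepacam2 (2.72), Ndnf (2.69), Cxcl9 (2.52), Gprc5a (2.45) and Il6 (2.35) fell in MHCII+ macrophages. Cxcl10 differed by 1.77, and by 1.05 (adjusted p = 0.35) without day 0 MHCII- replicate 2. Its adjusted p was 0.2 to 0.25 without replicate 2 of MHCII+ macrophages at day 0 or day 1, or without day 1 MHCII- replicate 1.

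Several of these differences ended when an array was left out. That of Cd68 did not pass without any 1 of the 8 arrays, with adjusted p of 0.06 to 0.18, and likewise that of Lyve1, at 0.055 to 0.23. That of Il6 did not pass (0.053 to 0.25) without replicate 1 of MHCII- macrophages at either day, replicate 2 of day 0 MHCII+ or either day 1 MHCII+ array. That of Saa3 did not pass (0.051 to 0.14) without day 0 MHCII- replicate 1, either day 1 MHCII- array or replicate 2 of MHCII+ macrophages at either day. That of Cd209f did not pass (0.052 to 0.088) without replicate 2 of day 0 in either gate, day 1 MHCII- replicate 1 or either day 1 MHCII+ array. That of Cxcl9 did not pass (0.061 to 0.13) without day 0 MHCII- replicate 2, day 1 MHCII- replicate 1 or replicate 2 of MHCII+ macrophages at either day. That of Klra2 was at 0.087 without day 0 MHCII- replicate 2 and 0.058 without day 1 MHCII+ replicate 2, and that of Mertk at 0.054 without day 1 MHCII+ replicate 1.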

How the results depend on the processing

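The count of 2835 genes was 4281 with the day 0, 1 and 4 arrays alone and 5070 with array quality weights, whose estimate did not reach its tolerance. It was 418 when tested against a 1.5-fold change, and 1672 to 2137 without 1 array. Leaving out an array also leaves 1 in its group, which is then taken to vary like the other groups. The labels name no pairing; same-numbered deviations from the group means correlated at 0.0070 between the days in MHCII- macrophages, and between the gates at 0.24 on day 0 and 0.29 on day 1. With a replicate block over the compared arrays the count was 3846. The 516 differences between the gates became 1222 with the compared arrays, 1722 with the day 0, 1 and 4 arrays, 2194 with weights, 59 against 1.5-fold, 1449 with the block, 1767 with a replicate block within each day (added after the data were seen; 505 of the 516 still passed in the same direction, and the adjusted p of Cxcl10 became 0.069) and 275 to 645 without 1 array. The 3947 genes of MHCII+ macrophages became 373 against 1.5-fold and 2336 to 3194 without 1 array, and with centred arrays the share that was higher moved from 52.3% to 64.2%. The 2680 genes of day 4 against day 1 became 5566 with the compared arrays, 4223 with the day 0, 1 and 4 arrays, 6130 with weights, 368 against 1.5-fold, 6017 with the block and 1537 to 1702 without 1 array. There the share that was higher moved from 69.8% to 58.5% (compared arrays), 59.3% (weights), 58.4% (block) and 59.1% (quantile normalization). The difference of Zbp1 turned from 0.79 to -0.02 without day 0 replicate 2 and was 1.60 without day 0 replicate 1, and the cause was not tested. Age, gate, array set and any toxin difference cannot be told apart from injury. Values near 5 to 7 carry no detection call, and 2 arrays a group limit what passes.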
